A study of Mus musculus with 67 samples.

Results

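Brain capillary endothelial cells and the pericytes around them were followed through 10 genes in 67 RNA sequencing libraries from mouse brain. The genes were the endothelial Cldn5, Itm2a, Slco1a4, Slco1c1, Ly6c1, Pecam1 and Flt1, the pericyte genes Rgs5 and Higd1b, and Bsg. They were chosen by name as known vascular genes, with earlier results of these data known. All 10 were found in each of the 3 tables, out of 24421 genes in the table of the LPS experiment and 24411 in each of the other tables. The study enriched microglia, so RNA of vascular cells is not its target here. The members other than Pecam1 and Bsg were followed as RNA of other cells held by each preparation, and for its response to LPS. Pecam1 and Bsg are not limited to vessels and were higher in most pull-downs than in IgG (below).

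All mice were C57BL/6J and carried the RiboTag allele (RLP22HA/HA in the labels), in which Cre recombinase attaches an HA tag to a ribosomal protein, together with CX3CR1CreER or CX3CR1Cre on 1 allele. Cx3cr1 drives both recombinases and is active in microglia and other myeloid cells, and vascular cells are not among the cells it is known to target. Whether either recombinase also tagged ribosomes of cells that are not myeloid was not tested, so RNA of other cells in a pull-down need not all be carry-over. An antibody against HA pulled tagged ribosomes with their RNA out of homogenised brain (pull-down), an isotype IgG did the same without a target (IgG), and unprocessed homogenate gave the input. Sorted cells were GR1 negative, CD45 intermediate and CD11b positive, from brain suspensions after a Percoll step.

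In the LPS experiment, tamoxifen-treated CX3CR1CreER mice were killed 3 h after an intraperitoneal injection of 2.5 mg/kg lipopolysaccharide (LPS, a bacterial cell wall product) or after PBS. Each treatment had pull-down, IgG, sorted cells and a pull-down made from sorted cells, with 4 LPS and 3 PBS libraries of each kind. The digest experiment used tamoxifen-treated CX3CR1CreER mice, with 4 libraries of cells sorted after an enzymatic digest, 4 of cells sorted without it, 3 pull-downs and 4 IgG. The driver experiment had pull-down, IgG and input from CX3CR1CreER mice without tamoxifen (2 libraries of each), CX3CR1Cre mice without tamoxifen (3 of each) and CX3CR1CreER mice given tamoxifen (3 of each). Tamoxifen was given by gavage as 4 doses of 5 mg. Values are CPM (read counts scaled to a common library depth), and a gene was called where its adjusted p was under 0.05. A log2 fold change is given with its standard error (SE), and a mean with its SD.

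Endothelial cells of the brain form the blood-brain barrier. Claudin-5 (Cldn5) is the main strand-forming protein of their tight junctions, Slco1a4 and Slco1c1 carry organic anions and thyroid hormone across the vessel wall, and Flt1 and Pecam1 are a receptor for vascular growth factors and an adhesion protein of cell junctions. Pericytes share the basement membrane with the endothelium, and Rgs5 and Higd1b are used as their markers. Pecam1 and Bsg are not limited to vessels: Pecam1 is also carried by leukocytes and platelets, and Bsg (basigin, a partner of lactate carriers) by many cell types. Inflammation is known to open the barrier and to induce adhesion proteins such as Icam1 on endothelium.

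The 250 bases before the start of the gene are shown for 3 members, Cldn5, Slco1c1 and Slco1a4. They come from RefSeq on GRCm38.p6, in which 7 of the 10 members were listed, whereas the counts were made on mm9. Cldn5 lies at chr16:18776597-18776846 (plus strand), Slco1c1 at chr6:141524104-141524353 (plus strand) and Slco1a4 at chr6:141856221-141856470 (minus strand). Each runs 5′ to 3′ on the strand of its gene. Capitals mark the letters AGGAAG (a core bound by ETS factors), CACCC (bound by KLF factors) and CCAAT (the CCAAT box) or their reverse complements.
Cldn5: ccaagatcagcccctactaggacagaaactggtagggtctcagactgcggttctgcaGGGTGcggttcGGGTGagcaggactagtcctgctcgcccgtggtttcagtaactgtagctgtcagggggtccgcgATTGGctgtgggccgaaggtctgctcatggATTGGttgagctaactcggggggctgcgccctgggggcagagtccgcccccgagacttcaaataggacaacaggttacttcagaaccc
Slco1c1: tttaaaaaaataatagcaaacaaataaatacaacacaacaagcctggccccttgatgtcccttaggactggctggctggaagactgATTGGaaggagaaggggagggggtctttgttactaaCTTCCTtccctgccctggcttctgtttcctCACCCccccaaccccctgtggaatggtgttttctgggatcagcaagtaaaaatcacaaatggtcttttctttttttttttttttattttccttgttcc
Slco1a4: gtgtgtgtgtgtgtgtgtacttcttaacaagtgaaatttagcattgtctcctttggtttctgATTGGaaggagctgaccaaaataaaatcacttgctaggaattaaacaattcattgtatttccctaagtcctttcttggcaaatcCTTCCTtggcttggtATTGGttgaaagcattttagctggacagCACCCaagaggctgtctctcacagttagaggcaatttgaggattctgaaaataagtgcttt
In these windows Cldn5 had CACCC and CCAAT, and no match to AGGAAG, while Slco1c1 and Slco1a4 had all of the motifs. The motifs are common: of 32851 upstream sequences of the same length, 29.5% held AGGAAG, 52.0% CACCC and 33.8% CCAAT on either strand. A match describes letters only.

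Library totals ran from 166851 to 3513317 reads, lowest in pull-downs from sorted LPS cells and, in the driver experiment, 186099 and 219521 in pull-downs without tamoxifen. A member passed the filter on low counts in 7 of 10 cases in the LPS experiment, 5 of 10 in the digest experiment and 10 of 10 in the driver experiment. The microglial label was checked with 19 microglial genes, whose summed level was 64732 to 70724 CPM in PBS pull-downs and 1433 to 2010 CPM in PBS IgG. Replicate 1 of the Cre pull-downs stood apart from its group. It held 3251 CPM of the microglial genes and 7531 CPM of 14 astrocyte genes, against 6991 and 7949 CPM, and 2636 and 2764 CPM, in replicates 2 and 3. Values without it stand beside the results of the Cre pull-downs below. All groups of the driver experiment share an estimate of the spread, so this library also entered the SE of comparisons without Cre pull-downs. Its part in those was not tested.

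In IgG libraries the antibody has no target, and the RNA is what was carried over from brain homogenate. In the driver experiment such RNA differed in part from input (below). In IgG, LPS lowered Cldn5 by 5.15-fold. Cldn5 stood at 5.67, 7.22, 12.3 and 7.39 CPM in the 4 LPS mice and at 44.6, 49.4 and 27.2 CPM in the 3 PBS mice. The highest LPS library lay below the lowest PBS library. The log2 fold change was -2.36 ± 0.35 (5.15-fold lower in LPS, adjusted p = 4.11e-06, edgeR quasi-likelihood test with Benjamini-Hochberg adjustment). Of the 11444 genes tested 1.15% were called, 115 higher and 17 lower, and Cldn5 was the 1 of the 7 tested members among them. By p and by size of change Cldn5 ranked 1 among the 17 lower genes. In these whole-brain samples fewer cells and less RNA per cell cannot be told apart.

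The solute carriers lay lower as well but did not pass the test. Slco1c1 stood at 3.55, 5.61, 5.46 and 5.91 CPM in LPS mice and at 10.8, 15.8 and 10.9 CPM in PBS mice. These groups did not overlap, for which no share over all genes is given here, and the log2 fold change was -1.25 ± 0.44 (adjusted p = 0.185). Slco1a4 had 0, 0, 1 and 0 reads in LPS mice and 3, 6 and 9 reads in PBS mice. That is 1 read against 18, a ratio of 22.9 lower in LPS with an exact 95% interval of 3.62 to 956 for counting error, and the group means were 0.341 ± 0.682 CPM in LPS and 5.11 ± 2.69 CPM in PBS (SD, n = 4 and 3). Slco1a4 was below the filter. An exact two-sided permutation test of its mean CPM gave p = 0.0286, the smallest that 4 against 3 libraries allow, and without the filter edgeR gave -3.91 ± 0.99 (adjusted p = 0.0112). The permutation test was also run on Itm2a (p = 0.143) and Higd1b (p = 0.886), and on these genes in pull-down. Its p-values were not adjusted for the number of tests.

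The remaining members overlapped between treatments in IgG. Rgs5 stood at 12.1, 16.8, 23.2 and 5.91 CPM in LPS mice and 24.3, 30.5 and 20.97 CPM in PBS mice, a log2 fold change of -0.87 ± 0.34 (adjusted p = 0.269). Flt1 averaged 8.56 CPM in LPS and 13.1 CPM in PBS (-0.57 ± 0.39, adjusted p = 0.618), and Ly6c1 17.9 CPM in LPS and 24.5 CPM in PBS (-0.42 ± 0.32, adjusted p = 0.667). Bsg averaged 356 CPM in LPS and 450 CPM in PBS (-0.33 ± 0.19, adjusted p = 0.498). Pecam1 had 1 to 4 reads in LPS libraries and 1 to 12 in PBS libraries, and Itm2a and Higd1b had 12 or fewer reads in each library, and no change in these 3 genes was detectable at this depth. All 7 tested members had a log2 fold change below 0, with a median of -0.87 beside -0.02 over all genes tested.

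**Figure D1:**
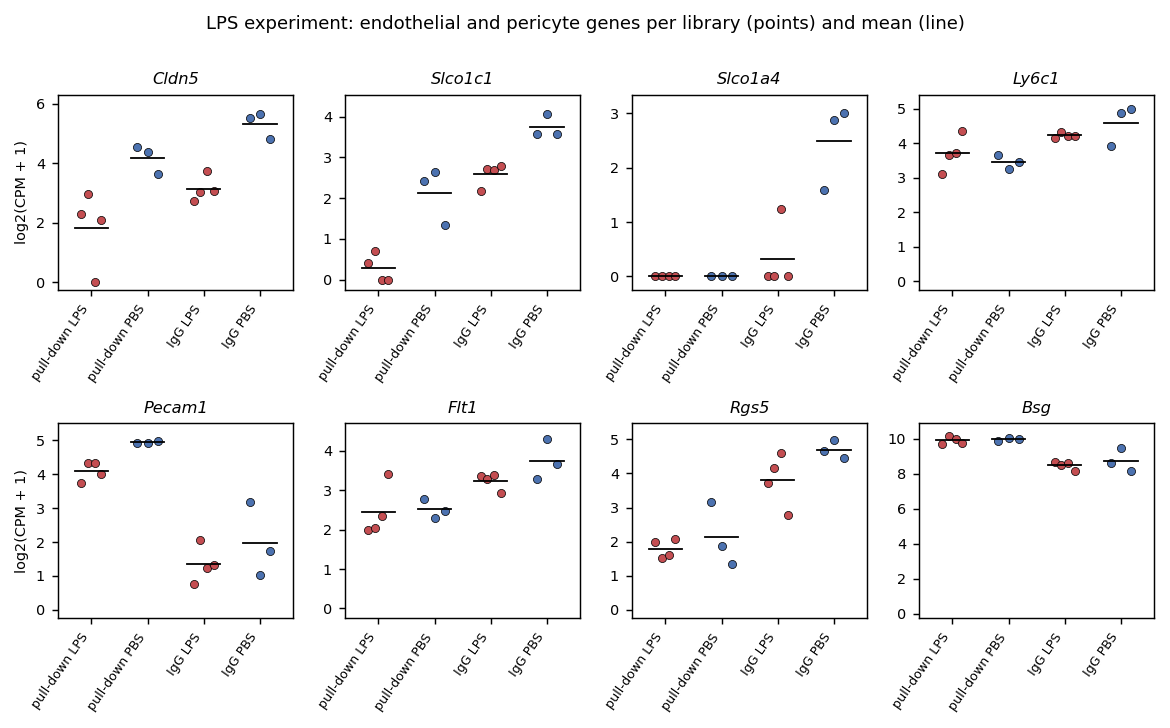
Level of 8 members in each pull-down and IgG library of the LPS experiment, as log2(CPM + 1), with points for libraries, lines for means, red for LPS (n = 4) and blue for PBS (n = 3). Cldn5 and Slco1c1 are lower in all LPS libraries than in any PBS library of the same preparation, and Slco1a4 has no read in any pull-down.

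Other vascular genes were counted beside them. Of 15 tested genes of an endothelial list without the members none was called in IgG (median -0.38), and of 6 tested genes of a pericyte and smooth muscle list none was called (median -0.36). Over all genes, 1339 had an unadjusted p under 0.05. The summed level of the 34 listed endothelial genes was 284 to 333 CPM in LPS and 361 to 435 CPM in PBS, and that of the 18 listed mural genes 172 to 207 CPM in LPS and 224 to 252 CPM in PBS. Both sums were without overlap, but they were not tested, and no share of genes without overlap is given to set beside them. In the list of endothelial activation, 2 of 6 tested genes were higher. Lcn2, an iron-binding protein of the acute phase, averaged 89.7 ± 20.8 CPM in LPS and 7.75 ± 5.26 CPM in PBS (log2 fold change 3.54 ± 0.37, adjusted p = 5.80e-08). Icam1, an adhesion protein for leukocytes, averaged 28.8 ± 6.39 CPM in LPS and 9.37 ± 3.66 CPM in PBS (1.65 ± 0.31, adjusted p = 0.000353).

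The levels of the other cell types given here overlapped between treatments in IgG, and those of the border macrophage, neutrophil and monocyte, and erythroid lists are not given. The sum over 15 neuronal genes was 7787 to 8596 CPM in LPS and 7491 to 9254 CPM in PBS, that over 14 astrocyte genes 3463 to 3714 CPM in LPS and 3273 to 3747 CPM in PBS, and that over 12 oligodendrocyte genes 4124 to 5180 CPM in LPS and 4496 to 4826 CPM in PBS. Choroid plexus genes (742 to 1987 CPM in LPS, 1069 to 1547 CPM in PBS), fibroblast genes (95.4 to 165 CPM in LPS, 157 to 174 CPM in PBS) and microglial genes (1461 to 3050 CPM in LPS, 1433 to 2010 CPM in PBS) overlapped too. The part of cell composition in the vascular values was not tested.

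In pull-down libraries Cldn5, which was lower there than in IgG (below), was again lower in LPS mice. Cldn5 stood at 3.95, 6.83, 0 and 3.24 CPM in LPS mice and at 22.6, 19.7 and 11.5 CPM in PBS mice, again without overlap between treatments. The log2 fold change was -2.26 ± 0.40 (4.79-fold lower in LPS, adjusted p = 8.11e-06). Slco1c1 had 1, 1, 0 and 0 reads in LPS mice and 6, 8 and 2 reads in PBS mice (-3.26 ± 0.81, adjusted p = 0.00113). As a ratio of reads this is 13.4 lower in LPS, with an exact 95% interval of 3.15 to 120.3 for counting error. Of all genes 26.5% were called in this comparison, and of the 7 tested members 3 were called, all lower.

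The third was Pecam1, at 12.5, 19.3, 19.01 and 15.1 CPM in LPS mice and 29.2, 29.6 and 30.6 CPM in PBS mice. Unlike Cldn5 and Slco1c1, Pecam1 was higher in pull-down than in IgG (below). It fell by 0.87 ± 0.29 on the log2 scale (adjusted p = 0.0180), and the call was lost without LPS replicate 1 (adjusted p = 0.0908) or PBS replicate 3 (adjusted p = 0.0557). The other members did not pass. Ly6c1 stood at 7.58, 11.8, 12.2 and 19.4 CPM in LPS mice and 11.7, 8.54 and 9.94 CPM in PBS mice (0.22 ± 0.37, adjusted p = 0.717). Flt1 (-0.15 ± 0.48, adjusted p = 0.858), Rgs5 (-0.65 ± 0.57, adjusted p = 0.437) and Bsg (-0.04 ± 0.18, adjusted p = 0.898) also overlapped between treatments. Slco1a4 had no read in any of the 7 pull-downs, and Itm2a and Higd1b had 5 or fewer in each.

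**Figure D2:**
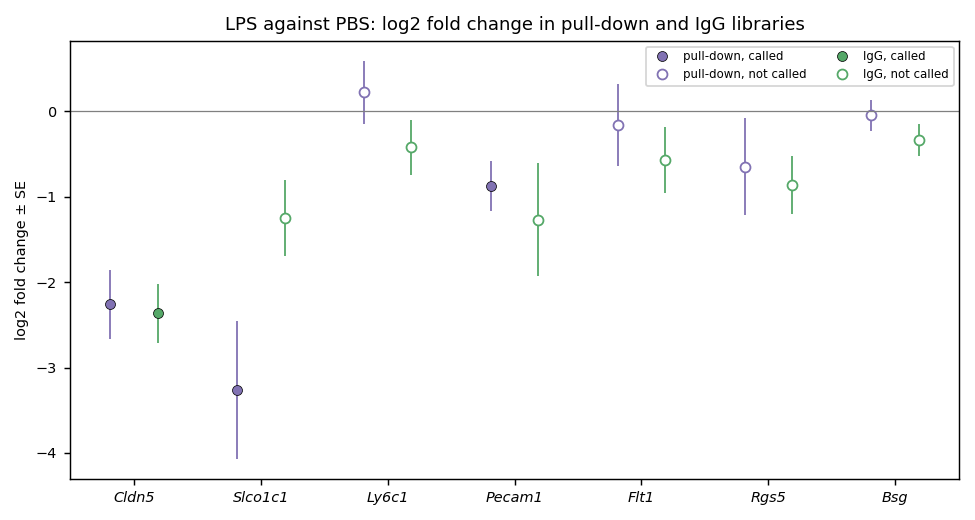
Log2 fold change of LPS against PBS with its SE for the 7 tested members, in pull-down and in IgG libraries (4 LPS and 3 PBS libraries each), with filled points for called genes. Cldn5 lies at -2.26 in pull-down and -2.36 in IgG, and Ly6c1, Flt1, Rgs5 and Bsg are not called in either.

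Activation genes were higher after LPS in pull-down too, with 4 of 6 tested called. Icam1 averaged 696 ± 173 CPM in LPS and 98.8 ± 5.61 CPM in PBS (2.81 ± 0.19), Lcn2 157 ± 42.7 CPM in LPS and 1.72 ± 1.22 CPM in PBS (6.46 ± 0.45), Lrg1 58.8 ± 16.1 CPM in LPS and 4.66 ± 3.91 CPM in PBS (3.67 ± 0.39) and Ch25h, a cholesterol hydroxylase, 40.8 ± 15.0 CPM in LPS and 3.11 ± 1.57 CPM in PBS (3.68 ± 0.43). In PBS mice Icam1 was itself higher in pull-down than in IgG, by 3.44 ± 0.28 (98.8 CPM in pull-down and 9.37 CPM in IgG). Of 15 other endothelial genes 3 were higher and 3 lower. The glucose carrier Slc2a1 averaged 301 ± 50.5 CPM in LPS and 43.1 ± 11.04 CPM in PBS (2.81 ± 0.19), the amino acid carrier Slc7a5 52.9 ± 8.25 CPM in LPS and 10.4 ± 6.47 CPM in PBS (2.31 ± 0.39), and Ctla2a 12.0 ± 3.19 CPM in LPS and 1.25 ± 1.16 CPM in PBS (3.15 ± 0.60). Endoglin (Eng) was lower, at 170 ± 32.4 CPM in LPS and 271 ± 6.66 CPM in PBS (-0.68 ± 0.16). Like Icam1, Eng was higher in pull-down than in IgG of PBS mice (below), and which cells gave these responses was not tested. Of 6 mural genes 1 was lower, Zic1, at 18.2 ± 1.89 CPM in LPS and 28.4 ± 5.95 CPM in PBS (-0.66 ± 0.24). All of these passed at an adjusted p of 0.0360 or less, with SD after the means (n = 4 and 3).

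Whether the response to LPS differed between pull-down and IgG was tested as an interaction. It was called for 8.58% of all genes and for 0 of the 7 tested members by edgeR (adjusted p from 0.178 to 0.958) and 0 by the DESeq2 Wald test, with 1 member, Slco1c1, at an unadjusted p under 0.05. For Cldn5 the difference in log2 fold change was 0.10 ± 0.70, and for Slco1c1 it was -2.02 ± 0.91 (adjusted p = 0.178). A p that misses the threshold does not show equal responses. Among the activation genes Icam1 (1.17 ± 0.39, adjusted p = 0.0460), Lcn2 (2.92 ± 0.78, adjusted p = 0.0131) and Lrg1 (2.75 ± 0.60, adjusted p = 0.00177) had a larger response in pull-down.

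The next question was how much vascular RNA the pull-down carried over. In PBS mice 65.0% of all genes differed between pull-down and IgG, and all 7 tested members did, 5 lower and 2 higher. Cldn5 stood at 22.6, 19.7 and 11.5 CPM in pull-down and 44.6, 49.4 and 27.2 CPM in IgG, 2.21-fold lower in pull-down (-1.15 ± 0.32, adjusted p = 0.00154). Slco1c1 (-1.66 ± 0.48), Ly6c1 (-1.25 ± 0.37) and Flt1 (-1.38 ± 0.45) were lower too, and the Flt1 call was lost without IgG replicate 2 (adjusted p = 0.0612). Rgs5 was lower still, at 8.03, 2.63 and 1.53 CPM in pull-down and 24.3, 30.5 and 20.97 CPM in IgG (-2.59 ± 0.43, adjusted p = 5.28e-07). Slco1a4, below the filter, had 0 reads in pull-down and 18 in IgG and was at least 6.77-fold lower, where the floor is set at 3 reads in all pull-downs of the group. The protocol states a smaller amount of IgG than of anti-HA antibody, and its part in these values was not tested. Of the called genes 50.8% were higher in pull-down, and with DESeq2 size factors, which moved the median of all genes by -0.51, 32.2% were.

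Residual vascular RNA stood beside that of other cells. The median log2 fold change of pull-down against IgG in PBS mice was -1.26 over the 7 members, -1.65 over 6 other mural genes, -1.61 over 15 neuronal, -1.45 over 14 astrocyte, -1.49 over 12 oligodendrocyte and -1.71 over 7 fibroblast genes, and 5.02 over 19 microglial genes, beside -0.02 over all genes. Pecam1 and Bsg, which were higher in pull-down, are among the 7 members and raise their median. Of 15 other endothelial genes 2 were higher and 3 lower (median -0.40). The higher ones were Eng (271 ± 6.66 CPM in pull-down and 23.8 ± 5.86 CPM in IgG, 3.53 ± 0.21) and Cd34 (104 ± 10.98 CPM in pull-down and 16.9 ± 3.30 CPM in IgG, 2.61 ± 0.25). The transferrin receptor Tfrc was lower, at 3.15 ± 2.00 CPM in pull-down and 27.7 ± 1.13 CPM in IgG (-3.11 ± 0.44). Mural genes such as Vtn (24.9 ± 2.35 CPM in pull-down and 57.4 ± 2.48 CPM in IgG, -1.20 ± 0.26) and Cspg4 (4.78 ± 0.508 CPM in pull-down and 20.5 ± 5.83 CPM in IgG, -2.06 ± 0.38) were lower, as 5 of 6 tested mural genes were.

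In LPS mice the called members lay on the same sides as in PBS mice, with 73.0% of all genes and 6 of 7 members called. Lower were Cldn5 (-1.04 ± 0.45, adjusted p = 0.0341), Slco1c1 (-3.67 ± 0.74), Flt1 (-0.97 ± 0.42, adjusted p = 0.0329) and Rgs5 (-2.37 ± 0.43). The Cldn5 call was lost without pull-down replicate 1 (adjusted p = 0.0538), pull-down replicate 3 (adjusted p = 0.135) or IgG replicate 3 (adjusted p = 0.0963). Ly6c1 was not called (-0.61 ± 0.32, adjusted p = 0.0814), but it fell by 1.27 ± 0.32 on the log2 scale with DESeq2 size factors (adjusted p = 0.000393), which moved the median of all genes by -0.66 and the share of called genes that were higher to 31.9%, against 51.6% with TMM scaling. Ly6c1 was also called lower when only these groups were fitted (-0.71 ± 0.28, adjusted p = 0.0226) and without pull-down replicate 4 (-0.83 ± 0.34, adjusted p = 0.0246). In 9 of 14 alternatives it was not called. The Flt1 call was lost without the filter on low counts (adjusted p = 0.0632).

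In the digest experiment 74.5% of all genes were called, and all 5 tested members, 3 of them lower in pull-down. Cldn5 stood at 15.2, 18.04 and 15.3 CPM in pull-down and 88.9, 51.9, 38.9 and 33.9 CPM in IgG (-1.74 ± 0.28, adjusted p = 2.26e-06). Rgs5 stood at 2.27, 1.24 and 1.91 CPM in pull-down and 5.46, 11.9, 14.1 and 19.2 CPM in IgG (-2.69 ± 0.52). Ly6c1 fell by 1.07 ± 0.36 on the log2 scale (adjusted p = 0.00792), a call lost without pull-down replicate 3 (adjusted p = 0.112) and when only these groups were fitted (-0.62 ± 0.37, adjusted p = 0.136). Over all genes the median of this comparison was -0.47.

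**Figure D3:**
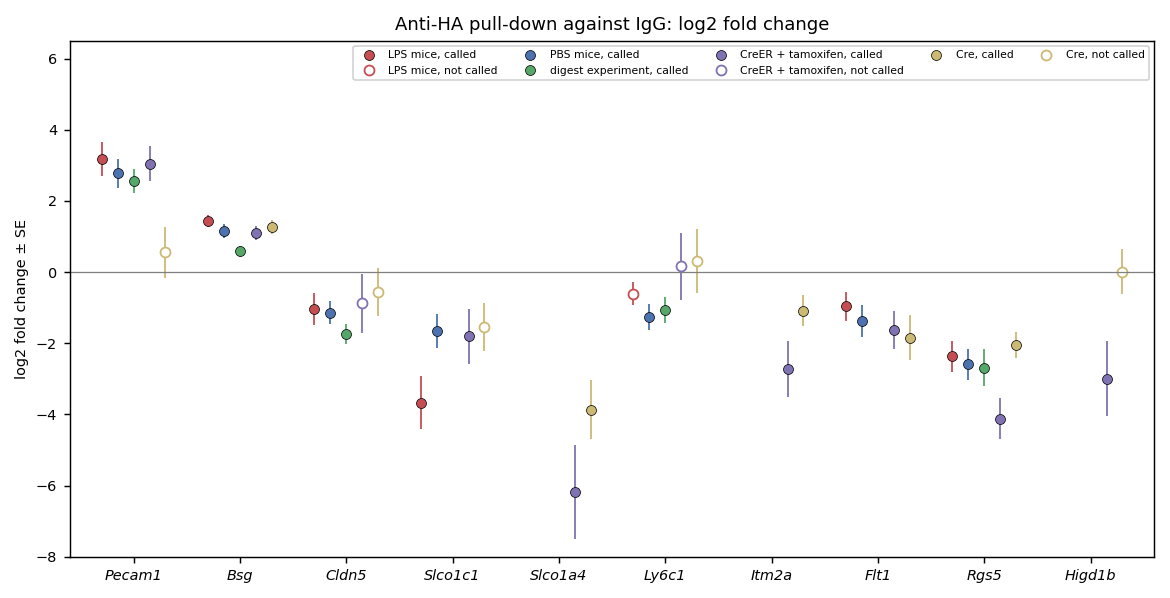
Log2 fold change of anti-HA pull-down against IgG with its SE for each member that passed the filter, in 5 comparisons marked by colour, with filled points for called genes. Pecam1 lies between 2.56 and 3.17 in the 4 comparisons with CX3CR1CreER and at 0.55 with CX3CR1Cre (-0.78 without pull-down replicate 1), Bsg is above 0 in all 5, and Rgs5 is between -4.12 and -2.04.

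With CX3CR1CreER and tamoxifen in the driver experiment, 66.1% of all genes and 8 of 10 members differed between pull-down and IgG. Itm2a had 0, 2 and 1 reads in pull-down and 11, 14 and 7 in IgG (-2.72 ± 0.78, adjusted p = 0.00282), and Slco1a4 had 0 reads in pull-down and 27 in IgG, at least 5.98-fold lower. Rgs5 stood at 1.28, 1.49 and 1.09 CPM in pull-down and 21.02, 23.4 and 27.1 CPM in IgG (-4.12 ± 0.56, adjusted p = 6.83e-08), 17.3-fold lower. Its fellow pericyte gene Higd1b fell by 3.00 on the log2 scale (SE 1.05, adjusted p = 0.0131). Flt1 (-1.62 ± 0.53) and Slco1c1 (-1.81 ± 0.77, adjusted p = 0.0388) were lower. Without IgG replicate 2 both calls were lost (adjusted p = 0.0959 for Flt1 and 0.227 for Slco1c1), that of Slco1c1 also without any 1 pull-down, and that of Higd1b without pull-down replicate 1 (adjusted p = 0.0582) or IgG replicate 3 (adjusted p = 0.120). With total-count scaling 30.4% of the called genes were higher, against 46.6% with TMM scaling. Cldn5 stood at 10.3, 5.95 and 17.4 CPM in pull-down and 29.3, 20.99 and 13.05 CPM in IgG (-0.88 ± 0.83, adjusted p = 0.369). It was called lower when only these groups were fitted (-0.91 ± 0.38, adjusted p = 0.0329) and without the filter on low counts (-0.84 ± 0.37, adjusted p = 0.0497). Ly6c1 reached 40.2 CPM in pull-down replicate 3 and was not called (0.16 ± 0.95).

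Pecam1 and Bsg went the other way from the vascular pattern. In PBS mice Pecam1 stood at 29.2, 29.6 and 30.6 CPM in pull-down and 8.10, 1.05 and 2.33 CPM in IgG, 6.85-fold higher in pull-down (2.78 ± 0.41, adjusted p = 3.28e-08). It was higher in pull-down than in IgG also in LPS mice (3.17 ± 0.47), in the digest experiment (2.56 ± 0.34) and with CX3CR1CreER and tamoxifen in the driver experiment (3.04 ± 0.49). With CX3CR1Cre it was not called (0.55 ± 0.71, and -0.78 ± 0.87 without pull-down replicate 1). Bsg averaged 992 CPM in pull-down and 450 CPM in IgG of PBS mice (1.15 ± 0.20, adjusted p = 1.33e-06) and was higher in pull-down in the other comparisons as well, by 0.58 ± 0.14 in the digest experiment to 1.44 ± 0.17 in LPS mice.

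The IgG libraries were set against input to ask whether the procedure itself shifts vascular RNA. With CX3CR1CreER and tamoxifen 35.0% of all genes and 2 of 10 members were called, and with CX3CR1Cre 27.4% of all genes and 1 member. Slco1a4 was higher in IgG in both. It stood at 3.75, 9.69 and 10.0 CPM in IgG and 0.701, 2.24 and 0.446 CPM in input with CX3CR1CreER (2.79 ± 0.67, adjusted p = 0.00139), and at 10.3, 4.13 and 10.3 CPM in IgG and 0.598, 0.469 and 1.71 CPM in input with CX3CR1Cre (3.14 ± 0.69, adjusted p = 0.000791). No IgG library overlapped an input library. When only the IgG and input libraries of a driver were fitted, Slco1a4 did not pass the filter on low counts and was not tested. Itm2a, a small membrane protein, ran the other way with CX3CR1CreER, at 8.26, 11.3 and 7.03 CPM in IgG and 39.9, 35.8 and 31.7 CPM in input (-1.98 ± 0.38, adjusted p = 0.000126). With CX3CR1Cre it was not called (-0.58 ± 0.37, adjusted p = 0.257).

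Other endothelial genes also differed in both directions between IgG and input. With CX3CR1CreER and tamoxifen 4 of 21 were higher and 6 lower, and with CX3CR1Cre 1 was higher and 5 lower. Tfrc averaged 36.3 ± 10.5 CPM in IgG and 6.38 ± 2.72 CPM in input with CX3CR1CreER (2.43 ± 0.33), and 38.8 ± 13.5 CPM in IgG and 6.60 ± 1.92 CPM in input with CX3CR1Cre (2.50 ± 0.35). Abcg2, a drug efflux pump, was higher by 2.17 ± 0.52 with CX3CR1CreER. The lipid carrier Mfsd2a was lower in IgG with CX3CR1CreER (-1.77 ± 0.38) and with CX3CR1Cre (-1.02 ± 0.35). Cldn5 was not called, at 29.3, 20.99 and 13.05 CPM in IgG and 32.2, 29.1 and 30.3 CPM in input with CX3CR1CreER (-0.50 ± 0.66, adjusted p = 0.592) and a log2 fold change of 0.08 ± 0.65 with CX3CR1Cre.

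Against input, the pull-down with CX3CR1CreER and tamoxifen had 64.2% of all genes called and 5 of 10 members. Itm2a (-4.70 ± 0.62, 26.0-fold lower), Rgs5 (-3.92 ± 0.57, 15.1-fold lower) and Higd1b (-2.64 ± 1.07, adjusted p = 0.0309) were lower, and Pecam1 (2.63 ± 0.45) and Bsg (1.22 ± 0.20) higher. Cldn5 averaged 11.2 CPM in pull-down and 30.5 CPM in input without overlap and was not called in the fit over all groups (-1.38 ± 0.79, adjusted p = 0.134). Fitted with these groups alone Cldn5 was called (-1.40 ± 0.36, adjusted p = 0.00350). The fit over all groups also drew its spread from replicate 1 of the Cre pull-downs, whose part in the larger SE was not tested. The Higd1b call was lost without replicate 1 or 3 of the pull-down (adjusted p = 0.114 and 0.0721) or of the input (adjusted p = 0.0776 and 0.0533).

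Sorted cells held few reads of most members. In PBS mice Cldn5 had 0, 0 and 1 reads in sorted cells and 31, 30 and 15 reads in pull-down, a ratio of 45.7 lower in sorted cells with an exact 95% interval of 7.96 to 1830 for counting error (adjusted p = 1.33e-07 in the fit). Ly6c1 had 1, 0 and 0 reads in sorted cells and 16, 13 and 13 in pull-down (ratio 25.3 lower, interval 4.29 to 1021.5). Rgs5 had 0, 0 and 1 reads in sorted cells and 11, 4 and 2 in pull-down, and Slco1c1 0, 1 and 0 reads in sorted cells and 6, 8 and 2 in pull-down. Of all genes 71.9% were called and 5 of 7 members, all lower. The calls of Slco1c1 (adjusted p = 0.0123) and Rgs5 (adjusted p = 0.0105) were each lost without sorted replicate 1 (adjusted p = 0.0866 and 0.0761), that of Slco1c1 also without pull-down replicate 2 (adjusted p = 0.0570) and that of Rgs5 without pull-down replicate 1 (adjusted p = 0.125).

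In LPS mice 76.1% of all genes and 3 of 7 members were called. Cldn5 had no read in the 4 sorted libraries and 26 in pull-down, at least 3.57-fold lower, and Ly6c1 had 1 read in sorted cells and 78 in pull-down (ratio 32.2 lower, exact 95% interval 5.61 to 1286). Slco1c1 was near the limit in both, with 3 reads in sorted replicate 3 and none in the other sorted libraries, and 2 reads over the pull-downs. Rgs5 (adjusted p = 0.0900) and Flt1 (adjusted p = 0.0836) were not called, but both were lower without the filter on low counts (-2.21 ± 0.85 for Rgs5, adjusted p = 0.0183, and -1.78 ± 0.66 for Flt1, adjusted p = 0.0127), as Flt1 was in PBS mice (-1.69 ± 0.71, adjusted p = 0.0337). Without the filter, with more genes tested, the median of all genes moved by -0.50 in LPS mice and -0.33 in PBS mice. For the 10 members, 4 had no read in any LPS sorted library and 2 had none in any PBS sorted library.

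Other vascular genes and genes of other cell types were lower as well. In PBS mice 6 of 6 tested mural genes were lower in sorted cells than in pull-down (median -4.23), and their summed level over 18 genes was 2.77 to 11.2 CPM in sorted cells and 78.2 to 95.9 CPM in pull-down, with 5 of 18 at 0 in the sorted group. Vtn averaged 0.467 ± 0.809 CPM in sorted cells and 24.9 ± 2.35 CPM in pull-down (-5.59 ± 0.69). Neuronal genes were lower in 15 of 15 (median -3.79), and astrocyte genes in 12 of 14 (median -3.85). Of 15 other endothelial genes 6 were lower and 3 higher. Egfl7, secreted by endothelium, averaged 0.929 ± 0.804 CPM in sorted cells and 31.4 ± 1.45 CPM in pull-down (-5.10 ± 0.59), whereas Abcg2 (34.5 ± 8.79 CPM in sorted cells and 2.86 ± 0.708 CPM in pull-down, 3.56 ± 0.43) and Cd34 (259 ± 26.6 CPM in sorted cells and 104 ± 10.98 CPM in pull-down, 1.31 ± 0.20) were higher.

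Pecam1 and Bsg had reads in every library of sorted cells. Pecam1 stood at 22.0, 26.3 and 16.8 CPM in sorted cells and 29.2, 29.6 and 30.6 CPM in pull-down of PBS mice (-0.45 ± 0.33, adjusted p = 0.222), and it was called without the filter on low counts (-0.94 ± 0.32, adjusted p = 0.00683). In LPS mice it stood at 15.6, 1.67, 7.36 and 17.8 CPM in sorted cells and 12.5, 19.3, 19.01 and 15.1 CPM in pull-down (-0.60 ± 0.37, adjusted p = 0.133). There it was called lower without the filter (-1.14 ± 0.34, adjusted p = 0.00182) and without sorted replicate 4 (-0.99 ± 0.44, adjusted p = 0.0378). Bsg was lower but abundant, at 473, 390 and 369 CPM in sorted cells and 937, 1033 and 1006 CPM in pull-down of PBS mice (-1.27 ± 0.20, adjusted p = 1.53e-07), and it was lower in LPS mice too (-1.38 ± 0.18).

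Pull-downs made from sorted cells were shallow and went into no test. They held 3, 2 and 6 reads of Cldn5 in the PBS mice, or 5.86, 7.40 and 10.1 CPM, and none in the 4 LPS mice. Those PBS values lie above the 0, 0 and 1.40 CPM of sorted cells from PBS mice. Pecam1 stood at 5.57, 15.4, 0 and 12.5 CPM in LPS mice and 33.2, 14.8 and 30.4 CPM in PBS mice, and Bsg at 390, 345, 351 and 467 CPM in LPS mice and 837, 577 and 799 CPM in PBS mice, where the groups did not overlap.

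The digest experiment compared the ways of sorting. Cells sorted after the digest had 72.8% of all genes called against pull-down, and cells sorted without it also 72.8%, with 4 of 5 members lower in each. Cldn5 had 0, 0, 1 and 0 reads after the digest, no read in the 4 libraries without it and 20, 29 and 24 reads in pull-down. The ratio to pull-down was 74.97 lower after the digest (exact 95% interval 13.04 to 3001), and without the digest Cldn5 was at least 27.0-fold lower. Rgs5 had no read in any of the 8 sorted libraries and 3, 2 and 3 in pull-down, at least 2.74-fold lower after the digest and at least 2.96-fold without it. Ly6c1 had 2 reads after the digest, 1 without it and 33 in pull-down. Slco1c1, below the filter, kept 1 to 3 reads in each of the 8 sorted libraries.

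Bsg stood at 499, 475, 385 and 474 CPM after the digest, 512, 527, 506 and 541 CPM without it and 1024, 901 and 973 CPM in pull-down (against pull-down, -1.08 ± 0.14 after the digest and -0.89 ± 0.14 without it). Pecam1 stood at 13.9, 20.9, 27.8 and 16.2 CPM after the digest, 17.1, 30.8, 18.6 and 19.4 CPM without it and 35.6, 21.1 and 25.5 CPM in pull-down, and against pull-down it was not called after the digest (adjusted p = 0.139) or without it (adjusted p = 0.258). Between sorting with and without the digest 0.139% of all genes were called and 0 of the 5 members, by edgeR and by the DESeq2 Wald test. At an unadjusted p under 0.05 there were 521 genes and 0 members. For Pecam1 that difference was -0.11 ± 0.27 and for Bsg -0.19 ± 0.13, and Cldn5, Ly6c1 and Rgs5 had too few reads to compare. The sorted libraries held 9.53 to 23.6 CPM of 15 neuronal genes after the digest and 10.1 to 21.1 CPM without it, with 11 of the 18 mural genes at 0 after the digest and 12 without it.

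**Figure D4:**
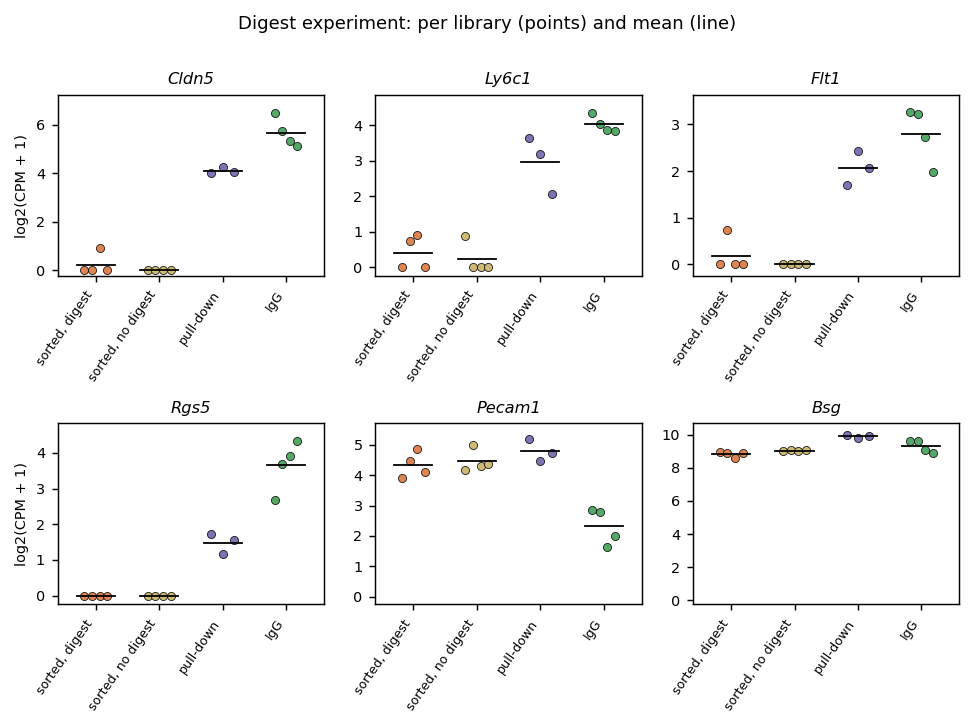
Level of 6 members in each library of the digest experiment as log2(CPM + 1), with points for libraries (4, 4, 3 and 4 from left to right) and lines for means. Cldn5, Ly6c1, Flt1 and Rgs5 lie at or near 0 in both kinds of sorted cells, and Pecam1 (13.9 to 30.8 CPM) and Bsg (385 to 541 CPM) do not.

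The constitutive driver was compared with the inducible one. Between pull-downs of CX3CR1Cre mice and of CX3CR1CreER mice with tamoxifen 55.7% of all genes and 5 of 10 members were called. Pecam1 was lower with CX3CR1Cre, at 8.84, 1.59 and 1.78 CPM, against 28.3, 41.6 and 23.9 CPM with CX3CR1CreER (-2.77 ± 0.47, adjusted p = 4.14e-06, and -4.11 ± 0.59 without Cre replicate 1). Rgs5 was higher, at 10.7, 3.98 and 6.25 CPM with CX3CR1Cre and 1.28, 1.49 and 1.09 CPM with CX3CR1CreER (2.42 ± 0.68, adjusted p = 0.00293). Itm2a stood at 13.9, 11.1 and 1.78 CPM with CX3CR1Cre and 0, 2.97 and 1.09 CPM with CX3CR1CreER (2.79 ± 0.77, adjusted p = 0.00232). Bsg was higher by 0.51 ± 0.19 (adjusted p = 0.0240), a call lost with DESeq2 size factors (0.33 ± 0.19, adjusted p = 0.139) and without any 1 of Cre replicates 1 and 3 and CreER replicates 2 and 3 (adjusted p 0.0612 to 0.0891). The microglial sum was 3251 to 7949 CPM with CX3CR1Cre and 88468 to 111930 CPM with CX3CR1CreER, and its part in these differences was not tested.

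For Cldn5, Ly6c1, Slco1c1, Higd1b and Pecam1 (above) the Cre values were high in 1 library. Cldn5 stood at 60.6, 3.98 and 4.46 CPM in Cre pull-downs and 10.3, 5.95 and 17.4 CPM with CX3CR1CreER. Ly6c1 stood at 81.4, 3.98 and 3.57 CPM with CX3CR1Cre and 12.8, 13.4 and 40.2 CPM with CX3CR1CreER. Higd1b stood at 13.3, 1.59 and 0.892 CPM, and Slco1c1 at 9.47, 0.796 and 0 CPM, in the Cre pull-downs. In each of these genes replicate 1 was the high one. That library also held 4718 CPM of choroid plexus and ependymal genes (657 and 716 CPM in replicates 2 and 3), 199 CPM of fibroblast genes (46.2 and 46.4 CPM) and 6136 CPM of oligodendrocyte genes (1854 and 1965 CPM). Their part in the vascular values was not tested.

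Without it, the sign of the difference from CX3CR1CreER turned for Cldn5, to -1.45 ± 0.59 (adjusted p = 0.0360) in place of 1.07 ± 0.81, and for Ly6c1, to -2.57 ± 0.78 (adjusted p = 0.00848) in place of 0.46 ± 0.89. Slco1c1 turned too without passing, to -2.53 ± 1.26 in place of 0.39 ± 0.88. With all libraries Cldn5 was called higher without the filter on low counts (1.07 ± 0.36, adjusted p = 0.00981). Higd1b lost its call (0.52 ± 1.34 in place of 2.63 ± 1.08), as it did without any 1 of the CreER pull-downs (adjusted p 0.0592 to 0.133) and with DESeq2 size factors (adjusted p = 0.0572), and Flt1 gained one (-3.17 ± 1.01). Rgs5 (1.91 ± 0.77, adjusted p = 0.0364) and Itm2a (2.30 ± 0.85, adjusted p = 0.0222) were still called higher without it. Against their own IgG, Cre pull-downs had 38.8% of all genes and 5 of 10 members called, with Bsg higher and Itm2a, Slco1a4, Flt1 and Rgs5 lower. Fitted with these groups alone, Slco1a4 and Flt1 did not pass the filter on low counts. The calls of Itm2a and Flt1 were each lost without pull-down replicate 2 or 3 or IgG replicate 2, that of Itm2a also without IgG replicate 3 and that of Flt1 without IgG replicate 1 (adjusted p 0.0536 to 0.219). With same-numbered libraries as a block Itm2a lost its call (adjusted p = 0.0646) and Slco1c1 gained one (-1.63 ± 0.63, adjusted p = 0.0383, against 0.0669 with no block). With total-count scaling 31.1% of the called genes were higher, against 52.9% with TMM scaling. Without pull-down replicate 1, 8 members were called, and Cldn5 then differed by -3.07 ± 0.50 in place of -0.55 ± 0.68, Slco1c1 by -4.47 ± 0.96 in place of -1.54 ± 0.67 and Ly6c1 by -2.71 ± 0.77 in place of 0.31 ± 0.89. Against input 34.9% of all genes and 3 members were called (Itm2a and Rgs5 lower, Bsg higher), and without replicate 1 there were 7, with Cldn5 at -2.99 ± 0.48 in place of -0.47 ± 0.63. Pecam1 was not called against input with replicate 1 (0.22 ± 0.56) or without it (-1.12 ± 0.74).

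**Figure D5:**
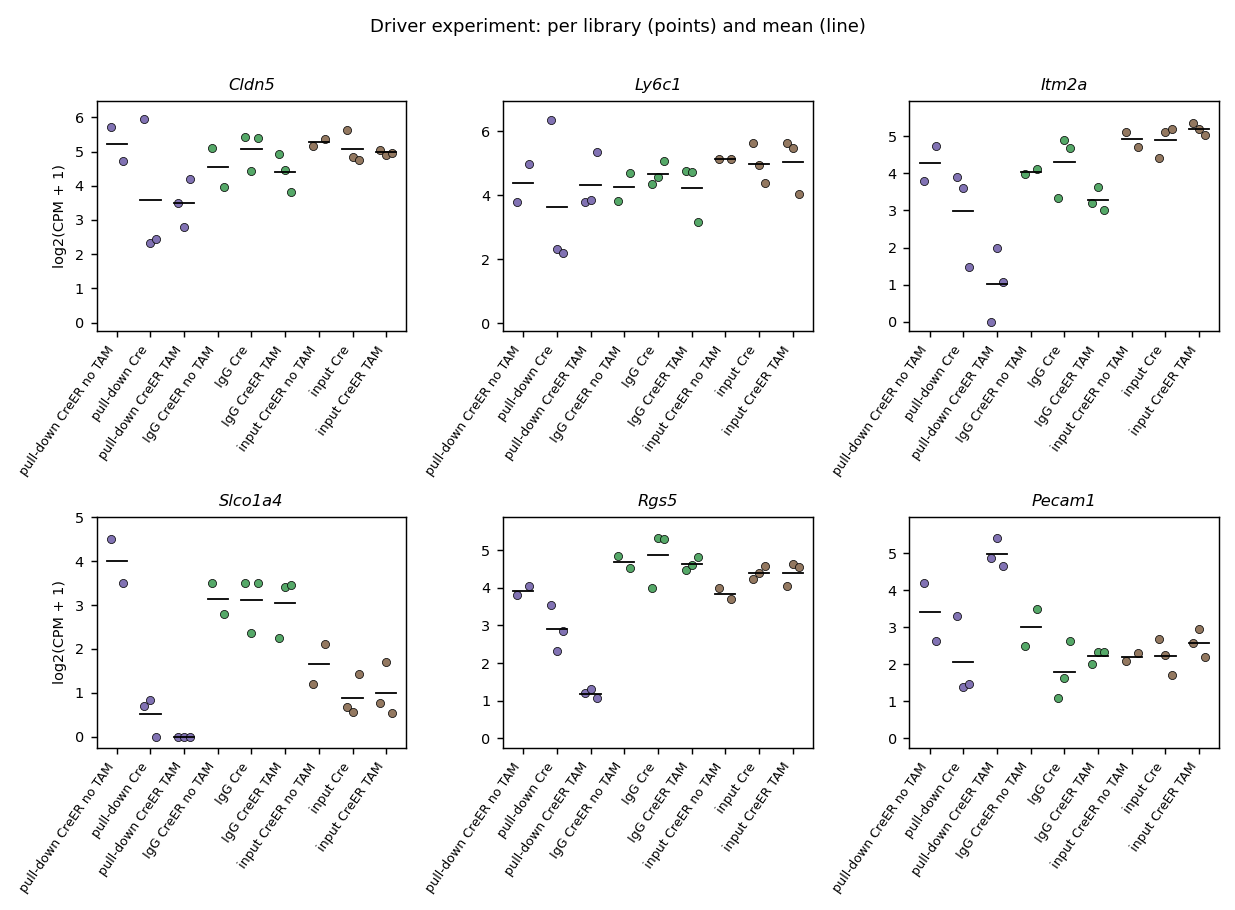
Level of 6 members in each library of the driver experiment as log2(CPM + 1), with pull-down in purple, IgG in green and input in brown (2 libraries without tamoxifen and 3 in every other group) and lines for means. In Cre pull-downs 1 library is far above the other two for Cldn5 and Ly6c1, and Slco1a4 has no read in the pull-downs of CX3CR1CreER mice with tamoxifen.

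In CX3CR1CreER mice given no tamoxifen, pull-down was compared with input in 2 libraries of each. Of all genes 10.9% were called against input and 3 of 10 members, all higher in pull-down. A member that was not called here is not shown to be equal in both. These were Slco1a4 (5 and 2 reads in pull-down, 2 and 5 in input, 2.77 ± 0.91, adjusted p = 0.0429), Flt1 (21.5 and 15.4 CPM in pull-down, 3.23 and 3.32 CPM in input, 2.48 ± 0.82, adjusted p = 0.0436) and Bsg (965 and 920 CPM in pull-down, 476 and 545 CPM in input, 0.88 ± 0.24, adjusted p = 0.0145). With any 1 of the 4 libraries left out none of the 3 was called, and with same-numbered libraries as a block Slco1a4 (adjusted p = 0.0565) and Flt1 (adjusted p = 0.0501) were not. Cldn5 stood at 51.7 and 25.7 CPM in pull-down and 34.9 and 40.5 CPM in input (0.07 ± 1.02). Summed microglial genes were at 16496 and 18926 CPM in these pull-downs, above the 937 to 1679 CPM of their IgG and the 1341 to 1421 CPM of their input, and above the 3251 to 7949 CPM of the Cre pull-downs. Icam1 averaged 20.2 CPM in these pull-downs and 1.32 CPM in input (3.89 ± 0.91, adjusted p = 0.00355).

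Compared with tamoxifen, the pull-down without it had 34.7% of all genes and 5 of 10 members called, all higher. Rgs5 stood at 12.9 and 15.4 CPM without tamoxifen and 1.28, 1.49 and 1.09 CPM with it (3.37 ± 0.94, adjusted p = 0.00499), and Itm2a at 12.9 and 25.7 CPM without it and 0, 2.97 and 1.09 CPM with it (3.78 ± 1.02, adjusted p = 0.00378). Slco1a4 had 7 reads without tamoxifen and none with it, at least 12.96-fold higher. Slco1c1 (2.81 ± 1.03, adjusted p = 0.0339) and Flt1 (1.99 ± 0.79, adjusted p = 0.0474) were higher too. These calls rest on 2 to 6 reads per library without tamoxifen. Without pull-down replicate 1 of the untreated mice Slco1c1 and Flt1 were lost, and without replicate 2 Itm2a, Slco1c1, Flt1 and Rgs5. Flt1 was lost also without any 1 of the tamoxifen pull-downs, and Slco1c1 without replicate 2 or 3 of them (adjusted p 0.0574 to 0.0797). The Flt1 call was lost also with same-numbered libraries as a block (adjusted p = 0.0676), DESeq2 size factors (adjusted p = 0.0570) or no filter (adjusted p = 0.0688), and it held in 3 of 11 alternatives. The log2 fold change of Cldn5 was 1.75 ± 1.15 and did not pass (adjusted p = 0.260), but Cldn5 was called higher when only these groups were fitted (1.90 ± 0.54, adjusted p = 0.00522) and without the filter on low counts (1.64 ± 0.51, adjusted p = 0.00861).

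Across the 21 groups of the series the members split into a vascular pattern and the pair Pecam1 and Bsg. By Pearson's r of group means of log2(CPM + 1) with Cldn5, Higd1b (0.89), Ly6c1 (0.88), Rgs5 (0.85), Itm2a (0.79), Flt1 (0.75), Slco1c1 (0.75) and Slco1a4 (0.64) went with it, whereas Bsg had 0.31 and Pecam1 -0.42. Among 8609 other genes at 10 CPM or more in PBS IgG, those most like Cldn5 were Acot1 (0.955), Sox10 (0.954), Islr (0.951), Chadl (0.950) and Tcf7l1 (0.949). These values describe groups that share libraries' depth and preparation, and no test goes with them. Ly6c1 has a close copy, Ly6c2, and Slco1a4 has the relatives Slco1a1, Slco1a5 and Slco1a6, so reads may be split among them. Ly6c2 was at 4.09 CPM or less in every IgG, input and brain pull-down library. In sorted cells of LPS mice it had 5 reads where Ly6c1 had 1, and in pull-downs from sorted cells it reached 16.1 CPM in LPS mice (7.42 to 16.1 CPM) and 14.8 CPM in PBS mice. The 3 relatives of Slco1a4 were at 1.79 CPM or less in all 67 libraries.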

How the data were processed

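RNA was sequenced from 67 mouse brain libraries in 3 experiments. The authors deposited 1 table per experiment with the raw count of exonic reads for each gene in every library. The submitters' processing notes name bcl2fastq, HISAT version 0.1.5, HOMER and the build mm9, and no source used here gives the annotation, strand setting or use of molecular identifiers, so antisense reads cannot be told apart. Each table was fitted whole in edgeR (version 4.0.16, R 4.3.3), with all groups of the experiment, filterByExpr (minimum count 10), TMM scaling and the robust quasi-likelihood F test. P-values were adjusted by Benjamini-Hochberg over all genes tested (11444, 11529 and 11868), and a gene was called under 0.05. CPM are counts over TMM-scaled library sizes. A group with no read was set to a floor of 3 reads over the group for a fold, and with few reads an exact 95% binomial interval was used. Reads are not independent molecules, so both cover counting error only. Totals of 166851 to 3513317 reads leave many members at a few reads per library.

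The 10 members and the companion lists were chosen with earlier results of these data known. Named from the companion lists were, per comparison, up to 4 called genes with the smallest p and at least 10 CPM in the higher group, of which the text gives some. Alternatives were DESeq2 size factors, total counts, the DESeq2 version 1.42.0 Wald test, no filter, only the groups compared, a replicate block and leaving out each library. The submitters' design text gives replicates as individual mice and says that sorting and pull-down used the same animals, and in the LPS experiment the sample titles number the libraries 1 to 7 alike in each preparation, so equal numbers there probably mark one mouse. The main fits had no block. The blocked alternative used this number between preparations and for the interaction, the number within the driver or the experiment elsewhere, and the plain replicate number between treatments or drivers, where the mice differ. Correlations of same-numbered libraries' deviations from their group means were -0.0484 to 0.132 in the LPS experiment. The fit was tested on simulated data. Promoter sequence came from RefSeq, and no coordinate was carried between builds.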

Additional observations from a re-analysis of the deposited data

Results flagged for a closer look

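Among 56 sets of 4 libraries with at least 1 read of a member, 12 had 1 library set off from the others by a gap above Dixon's 95% critical value. A set with reads in only 1 library always passes this rule, so the 12 cannot be set against a rate for chance. In 10 of the 12 the other libraries had no read, so 1 to 3 reads make the gap. In LPS IgG this was Slco1a4 in replicate 3 (1.36 CPM). In sorted cells of LPS mice it was Slco1c1 in replicate 3 (3.15 CPM) and Ly6c1 in replicate 1 (1.95 CPM), and in pull-downs from sorted LPS cells Higd1b in replicate 1 (1.86 CPM). In cells sorted after the digest it was Cldn5 (0.868 CPM) and Itm2a (1.74 CPM), both in replicate 3, Slco1a4 in replicate 4 (0.953 CPM) and Flt1 in replicate 2 (0.675 CPM). In cells sorted without the digest it was Slco1a4 in replicate 2 (0.751 CPM) and Ly6c1 in replicate 1 (0.853 CPM).

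The other two sets had reads in more than 1 library. Flt1 stood at 9.72 CPM in replicate 4 of the LPS pull-downs, against 2.97 to 4.07 CPM in the others. Itm2a stood at 12.3 CPM in replicate 3 of the pull-downs from sorted LPS cells, 2 reads in the shallowest library of the series, against 0 to 1.86 CPM in the others. Groups of 3, such as the Cre pull-downs, were not tested for gaps.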

How the results depend on the processing

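The lower Cldn5 in LPS mice kept its direction and its call under all 13 alternatives in IgG (log2 fold change -2.59 to -2.21, adjusted p at most 0.000355) and in pull-down (-2.69 to -1.91, adjusted p at most 0.000363). Without the filter on low counts the members called were 2 for LPS in IgG (Slco1a4 added), 8 and 7 for sorted against pull-down in PBS and LPS mice, 9 for pull-down against IgG in the digest experiment and 7 for sorted without digest. In the digest experiment the added members had not been tested before, whereas for sorted against pull-down Pecam1 and Flt1 in PBS mice, and Pecam1, Flt1 and Rgs5 in LPS mice, had been tested and not called, and Higd1b was newly tested. There 46.2% and 43.5% of the called genes were higher with the filter, and 32.2% and 29.1% without it, in PBS and LPS mice. Fits of only the groups compared tested fewer members and called 3 for pull-down against IgG in LPS mice, 2 and 1 for sorted against pull-down in PBS and LPS mice, 2 for sorting with and 2 without the digest, 1 and 0 for IgG against input with CreER and Cre, 5 and 2 for pull-down against IgG with CreER and Cre, 2 for Cre against CreER pull-down and 3 for no tamoxifen against tamoxifen. The DESeq2 Wald test called 2 for IgG against input with Cre and 3 for Cre against CreER pull-down, as DESeq2 size factors did (3).

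With 1 library left out, members called ranged from 3 to 6 for Cre against CreER pull-down, 3 to 8 for Cre pull-down against IgG, 3 to 7 for Cre pull-down against input, 1 to 2 for Cre IgG against input, 0 to 0 without tamoxifen against input, 1 to 4 without against with tamoxifen and 3 to 5 for sorted against pull-down in PBS mice. Called values changed sign only without Cre pull-down replicate 1. Over all fits without 1 library the log2 fold change of Ly6c1 ranged from -2.71 to 0.81 for Cre pull-down against IgG and from -2.57 to 1.26 for Cre against CreER pull-down, where that of Cldn5 ranged from -1.45 to 1.56. Another 62 sign changes among 1896 values concerned values called in neither fit. In no pair of groups did every pair of same-numbered libraries deviate together with a correlation over 0.1. With the replicate block, which for preparations of the same treatment is a block by mouse number, no member's call changed in the LPS or digest experiment, the interaction included. In the driver experiment the count moved by over 1.5 times only for pull-down without tamoxifen against input, to 1 member (adjusted p = 0.0565 for Slco1a4 and 0.0501 for Flt1), and Itm2a and Slco1c1 (Cre pull-down against IgG) and Flt1 (without against with tamoxifen) changed their calls. Counts of a few reads per library limit Slco1a4, Itm2a and Higd1b in pull-down and sorted libraries.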
